A study of Mus musculus with 3 samples.

Results

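The expression of 37 genes for cytosolic and mitochondrial chaperones was examined in pre-implantation mouse embryos of the diabetes-prone strain NOD and the diabetes-resistant strain B6. The 37 genes were taken by symbol from the 24063 genes of the blastocyst count table and cover the HSP70, HSP90, J-domain, TRiC and prefoldin families outside the endoplasmic reticulum and outside the MHC region. All 37 were found, and all 37 passed the filter on low counts with which 14456 genes were tested. The data were 3 low-input RNA-Seq libraries, 1 from a C57BL/6 (B6) blastocyst sample and 2 from NOD blastocyst samples (NOD 1 and NOD 2). The labels give no treatment, no embryo age beyond the blastocyst stage and no number of embryos for any library, and give whole blastocyst as the input for all of them, whereas the study's methods describe single inner cell masses. The libraries are therefore called blastocyst libraries here. Nothing in the labels states whether the NOD libraries came from separate animals, so that their spread may be technical.

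Chaperones bind proteins that are not yet folded, or have lost their fold, and keep them from aggregating. HSP70 proteins hold short unfolded stretches in cycles of ATP use, J-domain proteins bring clients to them and start the ATP step, and nucleotide exchange factors release the client. HSP90 acts later, on nearly folded clients handed over from HSP70. TRiC is a closed double ring that folds actin and tubulin, which prefoldin delivers, and a separate set with HSP60 and HSP10 works inside mitochondria. HSF1 is the transcription factor that switches on many of these genes after heat or other protein damage by binding heat shock elements. In mouse embryos, an inducible HSP70 gene is among the first to be transcribed when the embryonic genome is activated.

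Counts on genes summed to 12505685 in B6 against 33891715 in NOD 1 and 36171013 in NOD 2. The comparison rested on 1 B6 and 2 NOD libraries, which limits its precision. Even Hsp90ab1, with 62791 counts in B6, had a log2 fold change with an SE of 0.17. Values are given as CPM (counts relative to library size) after TMM scaling, on which scale 1 count was 0.0734 CPM in B6 against 0.0303 in NOD 1 and 0.0294 in NOD 2, and levels between genes are compared only as FPKM, which is CPM per kilobase of the listed transcript. Summed levels of cell type markers also differed between the B6 library and the NOD libraries. Summed over 8 trophectoderm markers, the NOD libraries had 0.52 to 0.57 times the B6 level, with no marker at 0 in either NOD library, 1 at 0 in B6 and none called by edgeR. For 7 epiblast markers the summed ratio was 1.21 to 1.74, with none at 0, 1 marker called up and 1 called down. For 6 primitive endoderm markers it was 0.32 to 0.42, with 1 at 0 in each library, and again 1 marker was called up and 1 down. That sum rested mostly on Gata6, which made up 385 of the 437 CPM in B6. For 8 oocyte and maternal markers it was 0.22 to 0.37. Markers of leukocytes and erythroid cells summed to at most 1.03 and 1.97 CPM. Those of oviduct and uterine epithelium summed to 0.59 CPM in B6 and to 8.56 and 4.50 in NOD, 7.66 to 14.6 times the B6 level. Of these 6 markers, 4 were at 0 in B6, 5 in NOD 1 and 2 in NOD 2. Muc1 was the highest and made up the whole NOD 1 sum, so that the ratio rests on few counts. Cumulus and granulosa markers summed to 11.5 CPM in B6 and to 17.8 and 21.7 in NOD. Of these 8 markers, 4 were at 0 in B6, 5 in NOD 1 and 4 in NOD 2, and Amhr2 was the highest at up to 19.7 CPM. The part that cell makeup has in the values below was not tested, and in bulk libraries fewer cells of a type and less RNA per cell cannot be told apart.

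Within the chaperone genes, genes with higher and genes with lower levels in NOD were found side by side in the same families. Of the 37 genes, 8 were up-regulated in NOD, which were Hsf1, Stip1, Dnajc7, Hspa14, Pfdn4, Ahsa1, Stub1 and Dnaja1, and 4 were down-regulated, which were Dnajb5, Hspa8, Pfdn5 and Hspe1. The genes called up included the transcription factor Hsf1, and those called down the main constitutive cytosolic HSP70, Hspa8. Neither HSP90 gene was called, and Hsp90ab1 was the most abundant member per length in each library. Calls were made where edgeR's quasi-likelihood test gave an adjusted p under 0.05 together with a change of 2-fold or more. The calls were 21.6% of the chaperone genes up and 10.8% down, against 10.3% up and 7.39% down of all genes tested, which are the shares to hold each count by role or list against. In all, 19 chaperone genes were higher in both NOD libraries than in B6, where the share over all genes was 45.3%, and 16 were lower in both, where it was 39.4%. The median log2 fold change was 0.12 for the chaperone genes and 0.26 for all genes. The plot of levels by library shows each gene in all 3 libraries.

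**Figure D1:**
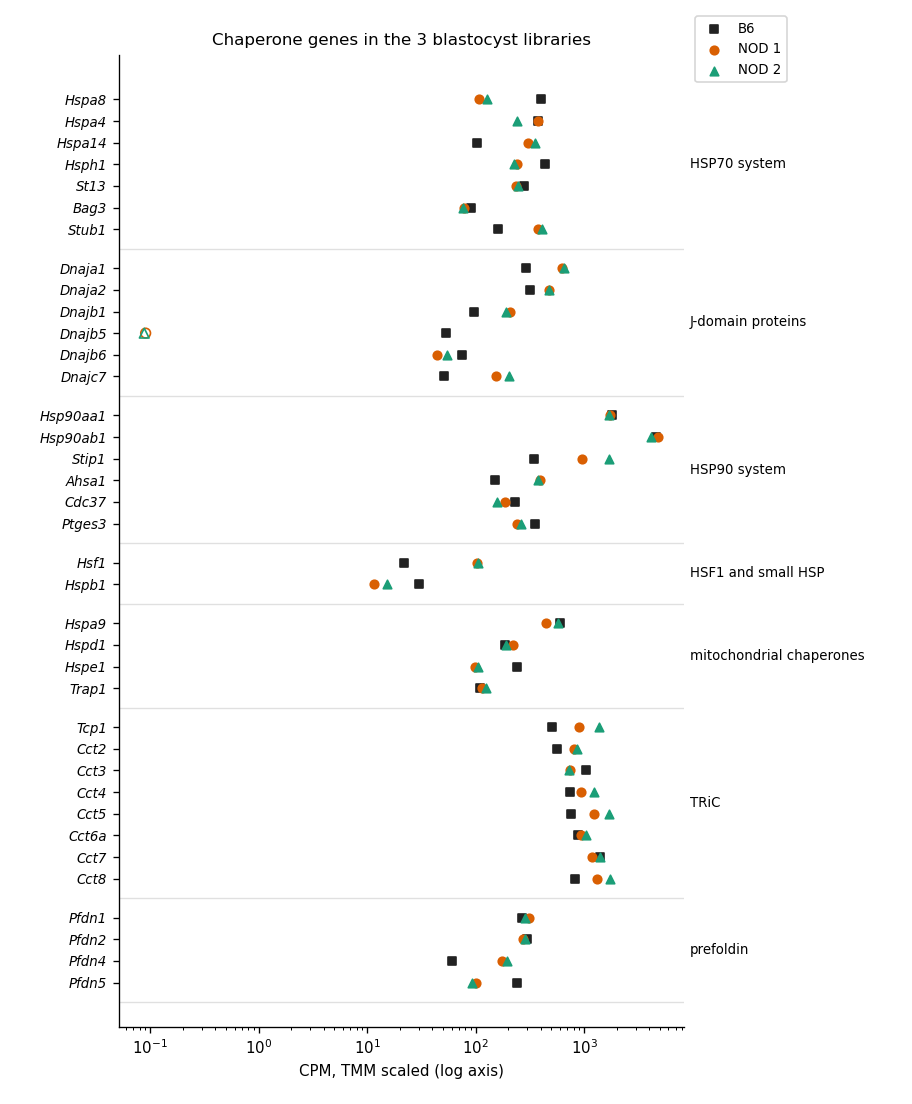
Level of each chaperone gene, grouped by role, in B6 (squares), NOD 1 (circles) and NOD 2 (triangles), in CPM after TMM scaling on a log axis; open symbols for Dnajb5 are drawn at the level of 3 counts because the counts were 2 and 0. Dnajb5 stands alone at the left in NOD, whereas Hsp90ab1 lies between 4154 and 4834 CPM in all 3 libraries.

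With 1 library against 2, the fit had 1 residual degree of freedom and borrowed the spread from all genes (prior degrees of freedom 3.78). An exact permutation test of a single gene could not go below p = 0.333 here. All 12 calls were absent when no filter on low counts was applied or when limma-voom was used, where no gene of the whole table was called either.

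Hsf1 had the largest increase among the chaperone genes. HSF1 is held inactive by chaperones in unstressed cells and drives their transcription when they are occupied. Hsf1 had 297 counts in B6 against 3419 in NOD 1 and 3617 in NOD 2, or 21.8, 103 and 106 CPM. Both NOD libraries were far above B6 and close to each other, with NOD 4.81 times as high as B6 (104.9 ± 2.0 CPM, SD, n = 2). The log2 fold change was 2.27 ± 0.34 (SE, edgeR adjusted p = 0.0257). No 50-base stretch of the Hsf1 transcript occurred in another gene, and no other gene overlapped its exons.

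Hspb1, the small heat shock protein HSP27 that binds unfolded proteins without ATP, was lower in both NOD libraries. Its level was 30.2 CPM in B6 against 11.7 in NOD 1 and 15.2 in NOD 2. The log2 fold change of -1.17 ± 0.44 (SE) missed the threshold (edgeR adjusted p = 0.120). Of its 50-base stretches, 60.4% also occurred in another gene, mostly in a processed pseudogene.

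In the HSP70 system, 2 of 7 genes were up-regulated and 1 was down-regulated, against 10.3% and 7.39% of all genes. Hspa8 encodes HSC70, the HSP70 made in unstressed cells. The B6 library held 5436 of its counts, against 3577 in NOD 1 and 4344 in NOD 2 although these were 2.71 and 2.89 times as deep, which gives 399, 108 and 128 CPM. Both NOD libraries were below B6, at 0.296 times its level, with a log2 fold change of -1.76 ± 0.24 (SE, edgeR adjusted p = 0.0235). In Hspa8, 86.3% of the 50-base stretches also occurred in another gene, 80.6% in the processed pseudogene Gm15459 alone, so its counts depend on how reads with several matches were placed.

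Hspa14 and Stub1 were the genes of this system with higher levels. Hspa14 is the ribosome-bound HSP70 that meets new chains as they leave the ribosome. Its level was 104 CPM in B6 against 307 in NOD 1 and 354 in NOD 2, 3.19 times as high in NOD (log2 fold change 1.67 ± 0.26, SE, edgeR adjusted p = 0.0268). Stub1 encodes CHIP, the ubiquitin ligase that marks HSP70 and HSP90 clients for degradation, and rose from 162 CPM in B6 to 375 in NOD 1 and 410.3 in NOD 2 (log2 fold change 1.27 ± 0.24, SE, edgeR adjusted p = 0.0348). For both genes the NOD libraries were close to each other and clear of B6.

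The counts of both genes include reads that cannot be assigned to them alone. Exons of Gm45902 on the same strand covered 17.9% of the exon bases of Hspa14. For Stub1 the share was 45.3%, mainly from Jmjd8 on the opposite strand, and counting ignored strand. Jmjd8 itself had 171 CPM in B6 against 255 in NOD 1 and 268 in NOD 2, with a log2 fold change of 0.62 that was not called.

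The other HSP70 genes were not called. Hsph1, the HSP110 protein that exchanges nucleotide on HSP70, was lower in both NOD libraries at 435 CPM in B6 against 239 in NOD 1 and 228 in NOD 2, and came close to the threshold (log2 fold change -0.89 ± 0.21, SE, edgeR adjusted p = 0.0514). Hspa4, a related exchange factor, had 376 CPM in B6 against 377 in NOD 1 and 240.5 in NOD 2, so that the spread within NOD covered the B6 value. St13, which steadies HSP70 in its client-bound state, had 280.3 CPM in B6 and 238 and 245 in NOD. Bag3, which links HSP70 to autophagy, had 91.3 CPM in B6 and 77.7 and 77.3 in NOD.

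The order of FPKM values within the system was not the same in B6 and NOD. In FPKM, Hspa8 was the highest of the 7 genes in B6 at 191, whereas in NOD the highest was Stub1 at 225 and 247. Hspa14 stood at 0.31 times Hspa8 in B6, but at 3.34 times in NOD 1 and 3.27 times in NOD 2. Bag3 was the lowest of the 7 in all 3 libraries, between 29.9 and 35.3 FPKM. Most of the Hspa8 sequence is shared with other genes, and exons of Hspa14 and Stub1 overlap other genes. FPKM divides by the whole transcript length and can therefore misstate the levels of Hspa8, Hspa14 and Stub1. Whether their order and ratios hold without shared reads was not tested.

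Of the 6 J-domain genes, 2 were up-regulated, 1 was down-regulated, and the down-regulated gene had almost no counts in NOD. Dnajb5 encodes a class B J-domain protein of the same type as HSP40. It lies on chromosome 4 at 42953094 to 42958732 (mm10, plus strand). There were 722 counts for it in B6 against 2 in NOD 1 and 0 in NOD 2, or 53.0 CPM in B6 and 0.0605 and 0 in NOD. Counting of reads alone, a count of 0 allows up to 0.0882 CPM in NOD 2. Over both NOD libraries the B6 level was 1777 times as high, with an exact Clopper-Pearson 95% interval from 490.2 to 14703 that covers counting error of reads only. Reads were made after 19 cycles of PCR without molecular identifiers. The floor and the interval therefore do not cover error in the number of molecules or their loss before amplification. It was called down (edgeR adjusted p = 0.0190), with a fitted log2 fold change of -10.58 that depends on the prior count. No 50-base stretch of its transcript occurred in another gene. Reads of both strains were aligned to mm10. The part that strain differences in sequence have in these and the other counts was not tested.

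The genes beside Dnajb5 were looked at because of this gap, after its values were seen. Vcp, an ATPase that pulls ubiquitylated proteins out of complexes, lies 21.2 kb downstream and had 663 CPM in B6 against 19.5 in NOD 1 and 13.7 in NOD 2 (log2 fold change -5.32, edgeR adjusted p = 0.0190). Between them, 1700022I11Rik had 68 counts in B6 against 30 in NOD 1 and 0 in NOD 2 and was not called (edgeR adjusted p = 0.278). Fancg, 43.6 kb from Dnajb5, was at 9.32 CPM in B6 against 11.9 in NOD 1 and 10.9 in NOD 2. Upstream, the nearest gene with enough counts to test was Ccl27a, 1179 kb away, which was lower in both NOD libraries at 4.70 CPM in B6 and 0.303 and 0.353 in NOD and was not called (log2 fold change -3.82, edgeR adjusted p = 0.0692). Of these genes, Dnajb5 and Vcp were called down and the others were not called.

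Dnaja1 and Dnajc7 rose. Dnaja1 is a class A partner of HSP70 and had 291 CPM in B6 against 631 in NOD 1 and 650.2 in NOD 2 (log2 fold change 1.14 ± 0.21, SE, edgeR adjusted p = 0.0351). Dnajc7 has binding sites for both HSP70 and HSP90 and can pass clients back from the later to the earlier step. It had 51.0 CPM in B6 against 156 in NOD 1 and 203 in NOD 2, 3.52 times as high in NOD (log2 fold change 1.82 ± 0.33, SE, edgeR adjusted p = 0.0330). Both NOD libraries exceeded B6 for each gene.

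Both genes share exons with neighbours on the opposite strand. Smu1 covered part of the 12.1% of Dnaja1 exon bases that lie in another gene and was itself higher in NOD, at 119 CPM in B6 against 472 in NOD 1 and 629 in NOD 2 (log2 fold change 2.22, edgeR adjusted p = 0.0232). In addition, 15.7% of the 50-base stretches of Dnaja1 occurred in the processed pseudogene Gm15542. For Dnajc7 the overlap with Nkiras2 and Cnp was 18.9% of exon bases. Nkiras2 had 35.4 CPM in B6 and 75.7 and 78.0 in NOD and was not called (edgeR adjusted p = 0.0809).

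Dnajb1, the stress-inducible HSP40, fell just outside the threshold. Its level was 96.4 CPM in B6 against 207 in NOD 1 and 193 in NOD 2, above B6 in both (log2 fold change 1.05 ± 0.26, SE, edgeR adjusted p = 0.0533). Dnaja2, a second class A partner, had 319 CPM in B6 and 472 and 475 in NOD (log2 fold change 0.57, edgeR adjusted p = 0.121). Dnajb6, which prevents the aggregation of glutamine-rich proteins, had 74.4 CPM in B6 and 43.9 and 54.5 in NOD (log2 fold change -0.60, edgeR adjusted p = 0.253). In FPKM, Dnaja2 was the highest J-domain gene in every library, at 113 in B6 against 167 in NOD 1 and 168 in NOD 2.

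In the HSP90 system, the co-chaperones Stip1 and Ahsa1 were higher in NOD while neither HSP90 gene was called. Hsp90ab1, the constitutive form, was the most abundant chaperone gene in each library at 1847 FPKM in B6 against 1938 in NOD 1 and 1665 in NOD 2. In CPM it had 4608 in B6 against 4834 in NOD 1 and 4154 in NOD 2, so that B6 lay between the NOD values (log2 fold change -0.04 ± 0.17, SE, edgeR adjusted p = 0.882). Hsp90aa1, the inducible form, had 1812 CPM in B6 against 1738 in NOD 1 and 1701 in NOD 2 (log2 fold change -0.08 ± 0.17, SE, edgeR adjusted p = 0.755). The FPKM of Hsp90ab1 was 2.89, 3.16 and 2.78 times that of Hsp90aa1 in B6, NOD 1 and NOD 2. Of the 50-base stretches of Hsp90aa1, 65.6% occurred in another gene, compared with 4.49% for Hsp90ab1.

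Stip1 encodes HOP, which holds HSP70 and HSP90 together while a client passes between them. It had 344 CPM in B6 against 956 in NOD 1 and 1703 in NOD 2. Both NOD libraries were above B6, but NOD 2 was 1.78 times as high as NOD 1, the widest gap between NOD libraries for any chaperone gene counted in both above the floor. The log2 fold change was 1.95 ± 0.41 (SE, edgeR adjusted p = 0.0426), and it was 1.47 with NOD 1 alone and 2.32 with NOD 2 alone. In NOD 2, Stip1 was the third most abundant chaperone gene at 789.7 FPKM. As FPKM, Stip1 stood at 0.84 times Hspa8 in B6, at 8.57 times in NOD 1 and at 12.9 times in NOD 2. These ratios depend on how the shared reads of Hspa8 were placed, which was not tested. With total counts as the only scaling Stip1 was not called (edgeR adjusted p = 0.0539), nor was it with upper-quartile factors (edgeR adjusted p = 0.0617).

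Ahsa1 encodes AHA1, which speeds up the ATPase of HSP90. It had 149.6 CPM in B6 against 389.6 in NOD 1 and 376 in NOD 2, with the NOD libraries close together and 2.56 times as high as B6 (log2 fold change 1.36 ± 0.23, SE, edgeR adjusted p = 0.0309). Of its 50-base stretches, 14.6% occurred in another gene, 13.4% in the lincRNA Gm49207. The other co-chaperones were lower in both NOD libraries without passing the threshold. Cdc37, which brings protein kinases to HSP90, had 229 CPM in B6 and 187 and 156 in NOD (log2 fold change -0.42, edgeR adjusted p = 0.271). Ptges3, or p23, which slows the release of clients, had 353 CPM in B6 and 240.5 and 265 in NOD (log2 fold change -0.48, edgeR adjusted p = 0.177).

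**Figure D2:**
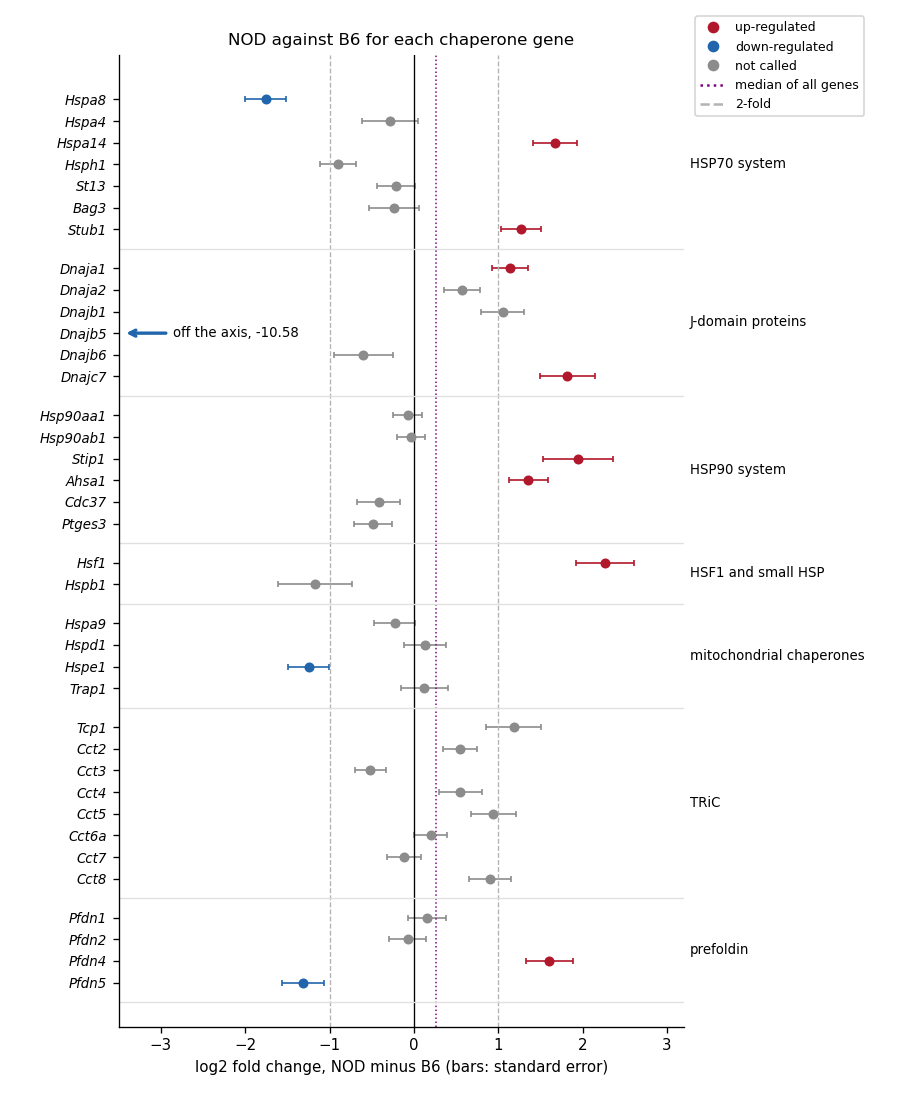
Log2 fold change of NOD minus B6 for each chaperone gene with its standard error as a bar, coloured by call; the dotted line is the median of all genes tested (0.26) and the dashed lines mark 2-fold. Called genes lie on both sides within the HSP70, J-domain and prefoldin groups, none of the 8 TRiC genes is called, and Dnajb5 is off the axis at -10.58.

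Of the 4 mitochondrial chaperone genes, Hspe1 was called down and the other three were not called. Hspe1 encodes HSP10, the lid of the HSP60 chamber, and had 241 CPM in B6 against 99.0 in NOD 1 and 104 in NOD 2. Both NOD libraries were below B6, at 0.422 times its level (log2 fold change -1.25 ± 0.24, SE, edgeR adjusted p = 0.0370). Hspd1, which encodes HSP60 itself, had 188 CPM in B6 against 221 in NOD 1 and 192 in NOD 2 (log2 fold change 0.13 ± 0.25, SE, edgeR adjusted p = 0.704). In FPKM, Hspe1 stood at 3.89 times Hspd1 in B6, 1.36 times in NOD 1 and 1.65 times in NOD 2.

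This pair of genes is of interest because their counted transcripts are read in opposite directions from starts only 216 bases apart. A second window listed for Hspd1 (chr1:55088194-55088493) lies past the Hspe1 start and held no heat shock element of the forms searched for below. The whole stretch between the starts of the counted transcripts is shown with its heat shock elements, the sites bound by HSF1, in capitals. It lies at chr1:55087933-55088147 (GRCm38.p6, plus strand, the direction of Hspe1), and Hspd1 is read from the other strand.
Hspe1 and Hspd1: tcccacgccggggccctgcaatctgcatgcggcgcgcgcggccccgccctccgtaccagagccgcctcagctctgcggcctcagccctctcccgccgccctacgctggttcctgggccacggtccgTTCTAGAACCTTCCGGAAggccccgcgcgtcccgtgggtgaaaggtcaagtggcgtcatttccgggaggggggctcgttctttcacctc
The capitals hold a pair of overlapping matches. One, TTCTAGAACCTTC, began 89 bases before the Hspe1 start, and the other, GAACCTTCCGGAA, began 84 bases before it.

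The counts of both genes are open to shared reads. Of the 50-base stretches, 44.8% occurred in another gene for each of Hspe1 and Hspd1, for Hspd1 mostly in the processed pseudogene Hspd1-ps3, and 14.5% of the exon bases annotated for Hspe1 overlapped Hspd1. With upper-quartile factors Hspe1 was no longer called (edgeR adjusted p = 0.05005).

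The remaining mitochondrial genes were not called. Hspa9, the mitochondrial HSP70 that pulls proteins through the inner membrane, had 595 CPM in B6 and 444 and 572 in NOD, with more spread between the NOD libraries than between NOD 2 and B6. Trap1, the mitochondrial HSP90, had 109 CPM in B6 and 114 and 124 in NOD. The log2 fold changes were -0.23 for Hspa9 and 0.12 for Trap1, and those of Hspd1 and Trap1 turned negative, to -0.05 and -0.06, under scaling by total counts alone.

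Heat shock elements were searched for in the RefSeq promoter windows of all genes, from 250 bases before to 50 after each start, because Hsf1 was among the genes called. The motifs were the 3-unit forms GAANNTTCNNGAA and TTCNNGAANNTTC and the 2-unit forms GAANNTTC and TTCNNGAA, each 2-unit form being part of a 3-unit form, on both strands. Windows were matched for 29 of the 37 genes. A window was not matched for Hspa8, St13, Hsp90aa1, Hsp90ab1, Hspa9, Cct4, Pfdn1 and Hsf1. A 3-unit element was found in 4 of 29 chaperone genes (13.8%) and in 179 of 27025 genes overall (0.662%). For 2 units it was 12 of 29 (41.4%) and 17.0% overall.

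The genes with a 3-unit element were Hspe1, Hspd1, Dnajb6 and Hsph1. The stretches of Dnajb6 (chr5:29735798-29735897, plus strand, just before the start) and Hsph1 (chr5:149636279-149636308, minus strand, inside the transcript) are shown with the element in capitals, so that they can be compared with the Hspe1 element.
Dnajb6: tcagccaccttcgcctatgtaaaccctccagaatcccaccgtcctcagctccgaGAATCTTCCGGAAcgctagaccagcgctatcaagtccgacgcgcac
Hsph1: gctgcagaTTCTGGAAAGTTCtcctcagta
The element of Dnajb6 began 46 bases before the start of the counted transcript and that of Hsph1 began 15 bases after it. From a second listed start of each gene, the same elements began 127 bases before it for Dnajb6 and 36 bases after it for Hsph1. These 4 genes had log2 fold changes from -1.25 to 0.13, with a median of -0.75. None of them was up-regulated and 1, Hspe1, was down-regulated. Among the 25 genes with a window and no 3-unit element, 7 were up-regulated and 2 down-regulated, and the median was 0.55. Hspe1 and Hspd1 share their element, so that the 4 genes hold 3 separate ones. Of the 12 genes with a 2-unit match, 2 (Stub1 and Dnaja1) were up-regulated and 1 (Hspe1) down-regulated, with a median of -0.05, and of the 17 without, 5 were up-regulated and 2 down-regulated, with a median of 0.57. Against the 10.3% of all genes called up and 7.39% called down, these groups of genes are too small for the counts to be read as a difference between them. A match of letters does not show that HSF1 was bound, and no match says only that these letters are not in the window.

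**Figure D3:**
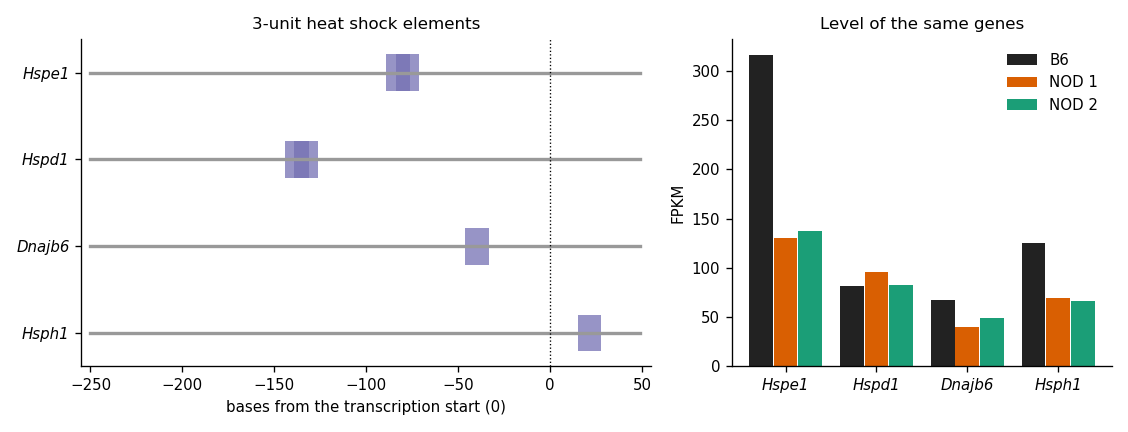
Left, position of 3-unit heat shock elements (boxes, darker where a pair of matches overlaps) in the promoter windows of Hspe1, Hspd1, Dnajb6 and Hsph1, in bases from the start of the counted transcript. Right, FPKM of the same genes in each library: Hspe1, Dnajb6 and Hsph1 are lower in both NOD libraries, and Hspd1 is between 81.2 and 95.4 in all 3.

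None of the 8 TRiC genes was called. A ring holds each of the 8 subunits, so their levels per length can be set side by side. Summed over the 8 genes, the level was 6714 CPM in B6 against 8076 in NOD 1 and 10081 in NOD 2. The median log2 fold change was 0.55, against 0.26 for all genes, and the difference was not tested. In both NOD libraries 6 genes were higher and 2 lower, against 45.3% and 39.4% of all genes.

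Tcp1 (CCT1) had the largest difference, at 506 CPM in B6 against 907 in NOD 1 and 1385 in NOD 2 (log2 fold change 1.18 ± 0.32, SE, edgeR adjusted p = 0.0657). Cct5 had 764, 1233 and 1695 CPM (log2 fold change 0.94, edgeR adjusted p = 0.0703), and Cct8 had 820.0, 1324 and 1742 CPM (log2 fold change 0.90, edgeR adjusted p = 0.0657). For these genes both NOD libraries were above B6, and NOD 2 was 1.32 to 1.53 times as high as NOD 1. Exons of Acat3 on the opposite strand covered 23.3% of those of Tcp1, and Acat3 was at 223 CPM in B6 against 191 in NOD 1 and 228 in NOD 2. For Cct8 the overlap with Usp16 was 8.02%, and Usp16 was at 87.6 CPM in B6 against 178 in NOD 1 and 162 in NOD 2.

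The other TRiC genes differed less. Cct2 had 568 CPM in B6 and 804 and 855 in NOD, and Cct4 had 744 in B6 and 933 and 1245 in NOD. Cct6a had 870 CPM in B6 and 945 and 1050.3 in NOD. Exons of Psph on the opposite strand covered 18.4% of those of Cct6a. Psph was higher in NOD, at 12.1 CPM in B6 against 45.2 in NOD 1 and 56.9 in NOD 2 (edgeR adjusted p = 0.0403). Cct7 had 1399 CPM in B6 and 1190.0 and 1389 in NOD, where NOD 2 nearly met B6. Cct3 was the TRiC gene with the lowest log2 fold change, -0.52 ± 0.19 (SE, edgeR adjusted p = 0.112), with 1043 CPM in B6 and 739.5 and 719 in NOD.

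In FPKM, the 8 subunits spanned a 2.82-fold range in B6, 1.92-fold in NOD 1 and 2.61-fold in NOD 2. Tcp1 was the lowest in B6 (203) and in NOD 1 (365), whereas Cct3 was the lowest in NOD 2 (370.4). Cct7 was the highest in B6 at 574 FPKM, and Cct5 was the highest in NOD, at 702 in NOD 1 and 965 in NOD 2. Cct3, next to the top in B6 at 537 FPKM, was among the bottom pair in each NOD library.

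**Figure D4:**
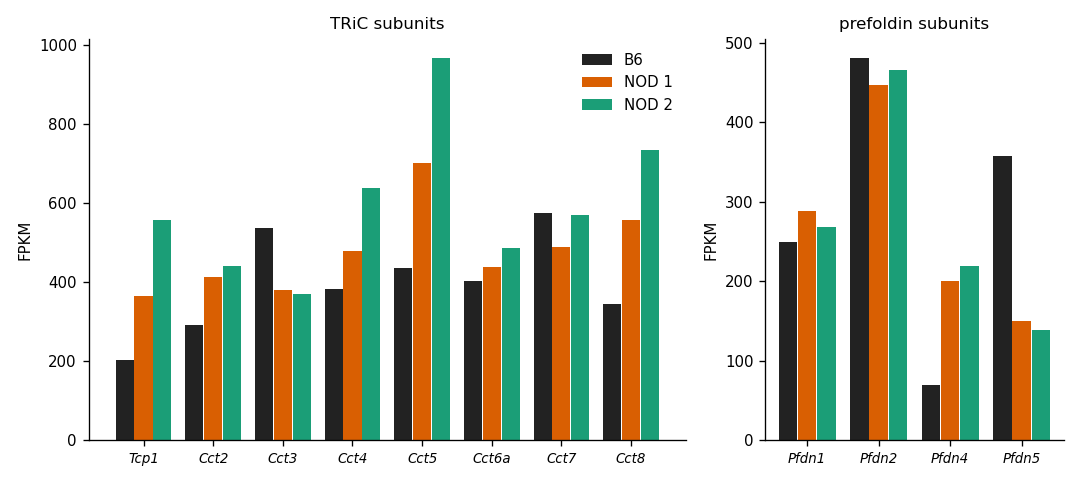
FPKM of the 8 TRiC genes (left) and the 4 prefoldin genes (right) in B6, NOD 1 and NOD 2, 1 bar per library. Cct3 is at 537 in B6 and at 381 and 370.4 in NOD, Cct5 is the highest TRiC gene in NOD, and Pfdn5 is above Pfdn4 in B6 and below it in both NOD libraries; no TRiC gene passed the test.

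The prefoldin genes diverged within the complex. Pfdn4 was higher and Pfdn5 lower in NOD, while Pfdn1 and Pfdn2 differed little. Pfdn4 had 60.8 CPM in B6 against 176 in NOD 1 and 193 in NOD 2, 3.04 times as high in NOD (log2 fold change 1.60 ± 0.28, SE, edgeR adjusted p = 0.0314). Pfdn5, known also as a binding partner of MYC, had 239.8 CPM in B6 against 101 in NOD 1 and 92.7 in NOD 2, 0.403 times the B6 level (log2 fold change -1.31 ± 0.25, SE, edgeR adjusted p = 0.0351). In both cases the NOD libraries differed little from each other and did not overlap B6. As FPKM, Pfdn4 stood at 0.19 times Pfdn5 in B6, 1.33 times in NOD 1 and 1.59 times in NOD 2.

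Pfdn2 was the highest prefoldin gene in each library, between 447 and 480.3 FPKM, and Pfdn1 had 267 CPM in B6 and 309 and 287 in NOD. Summed over the 4 genes the level was 863 CPM in B6 against 861 in NOD 1 and 859.9 in NOD 2. Part of the exons of Pfdn4 (25.1%) lay opposite the antisense gene Gm16796, with 1 count in B6 against 194 in NOD 1 and 217 in NOD 2. Reads of Pfdn4 and Gm16796 cannot be told apart there. For Pfdn5, 30.3% of the 50-base stretches occurred in the processed pseudogene Gm5644.

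The calls were also set against shared sequence. Of the 37 genes, 21 had less than 10% of their 50-base stretches in another gene, and among them 2 were called up (Stip1 and Hsf1) and 1 down (Dnajb5). The other 16 genes held the remaining 9 calls, 6 up and 3 down, and 7 genes that were not called. Over all genes tested, 10.3% were called up and 7.39% down, and shared sequence was not counted for them. The part that shared reads have in these 9 calls was not tested, because it is not given in the sources used here how reads with several matches were counted.

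Scaling also bears on the balance of the calls. With total counts as the only scaling, 47.8% of all calls were up, compared with 58.1% after TMM scaling, and the median of all genes was 0.07 in place of 0.26. Then Dnaja1 and Stip1 were not called, and Hsph1 was called down at a log2 fold change of -1.08 (edgeR adjusted p = 0.0426). DESeq2 called 10 chaperone genes up, with Dnajb1 and Tcp1 added, and the same 4 down.

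**Figure D5:**
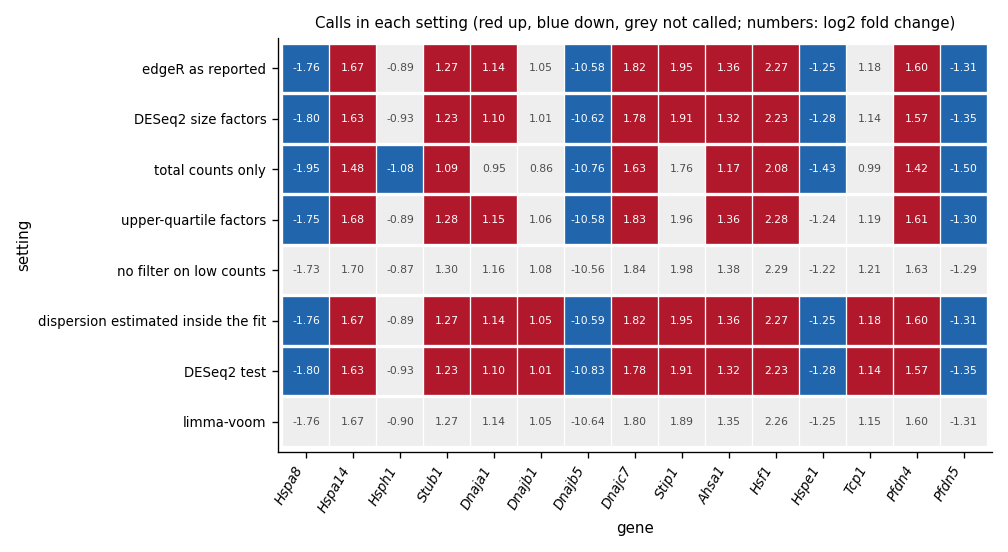
Calls for the 15 chaperone genes called in any of 8 settings (rows), with the log2 fold change of NOD minus B6 in each cell; red is called up, blue called down and grey not called. Directions and sizes are alike in all rows, and the rows without a filter on low counts and with limma-voom hold no call.

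Of the other genes of the same pathways, 105 were listed and 97 tested, and 13 (13.4%) were called up and 8 (8.25%) down, against 10.3% and 7.39% of all genes. Among the other heat shock factors, Hsf2, which pairs with HSF1, was lower in NOD at 43.2 CPM in B6 against 12.2 in NOD 1 and 11.1 in NOD 2 (log2 fold change -1.90, edgeR adjusted p = 0.0407). No other of the 4 tested genes of that list was called. Of 12 other HSP70 genes and co-chaperones, 2 were called up and none down. Hspa4l, a further HSP110 protein, had 10 counts in B6 against 363 in NOD 1 and 579 in NOD 2, and Sugt1, an adaptor of HSP90 and HSP70, had 519 CPM in B6 against 1263 in NOD 1 and 1513 in NOD 2.

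Of 17 other HSP90 co-chaperones, 1 was called up and 3 down. Chordc1 had 58.3 CPM in B6 and 172 and 218 in NOD. Fnip1, which slows the ATPase that Ahsa1 speeds up, had 79.4 CPM in B6 and 15.1 and 15.5 in NOD (log2 fold change -2.37, edgeR adjusted p = 0.0248). Fkbp8, a mitochondrial immunophilin, had 333 CPM in B6 and 94.9 and 82.3 in NOD, and Aarsd1 had 154 in B6 and 47.0 and 57.5 in NOD.

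Among 28 other J-domain genes, 5 were called up and 2 down. The named ones were Dnajc12 (log2 fold change 2.95), Dnajb14 (2.56) and Dnajb12 (2.32), the last pair with J domains that face the cytosol from the ER membrane, and in the other direction Dnajc11 (-1.73) and Gak (-1.58), which uncoats clathrin vesicles. Of 15 factors related to TRiC, prefoldin and tubulin folding, Pdcl3, which binds TRiC, was called up at 60.3 CPM in B6 and 189 and 276 in NOD, and Tbcd, a tubulin cofactor, was called down at 49.3 in B6 and 9.56 and 8.26 in NOD.

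Of 14 other mitochondrial chaperones and proteases, 2 were called up and 1 down. Clpx, the unfolding subunit of a matrix protease, had 37.4 CPM in B6 against 208 in NOD 1 and 388 in NOD 2 (log2 fold change 2.99, edgeR adjusted p = 0.0291). Grpel1, the exchange factor for Hspa9, had 367 CPM in B6 and 765 and 841 in NOD, and Clpb, a disaggregase, had 108 in B6 and 41.5 and 36.6 in NOD. Of 7 other small heat shock genes tested, 2 were called up. Hspb8, a partner of Bag3, had 13.2 CPM in B6 and 77.9 and 120.3 in NOD, and Hspb11 had 15 counts in B6 against 482 in NOD 1 and 458 in NOD 2.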

How the data were processed

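The authors prepared RNA-Seq libraries from blastocysts (1 B6, 2 NOD) with SMART-Seq V4 and 19 cycles of PCR without molecular identifiers, and sequenced as single-end reads. The deposited values are raw counts that the authors made with STAR and HOMER on mm10, for RefSeq exons, with 1 transcript a gene and without regard to strand, and were checked to be whole numbers. Per the labels, STAR was version 2.2.0c, whereas the study's methods give a different version for these libraries. The table held 0 columns of other samples.

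Counts were tested here in R 4.3.3 with edgeR 4.0.16 (filterByExpr with a minimum count of 10, TMM, quasi-likelihood test with trended dispersion), with Benjamini-Hochberg adjustment across 14456 genes. Calls needed an adjusted p under 0.05 and a 2-fold change. Each SE was obtained from the log2 fold change and its F statistic. The script was also tested on simulated data. Sharing was counted as 50-base words in GENCODE M21 transcripts, and promoters were RefSeq windows (GRCm38.p6). DESeq2 1.42.0, limma 3.58.1, other scalings, no filter and each NOD library alone were alternatives. The number of libraries limits the precision. In B6, 3 counts stood for 0.220 CPM, and floors and intervals cover counting error of reads only, not of molecules.

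The members and gene lists were chosen with earlier results of these data known. All members may be named, and of the related lists at most 3 called genes per direction, by size of change. Vcp and its neighbours, and genes that overlap a member, were added to those named with their values in view.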

Additional observations from a re-analysis of the deposited data

How the results depend on the processing

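With no filter on low counts 0 genes were called up and 0 down, for all genes, the chaperone genes and the related lists alike, while 5568 genes and 19 chaperone genes had an unadjusted p under 0.05 (edgeR). With limma-voom the counts were also 0 and 0, with 3924 genes and 18 chaperone genes at that p, against 5763 and 21 in edgeR as reported. The smallest adjusted p of a chaperone gene was 0.0649 and 0.0631 in these settings. DESeq2's test called 2365 genes up and 1887 down, and 22 and 14 of the related lists. Upper-quartile factors gave 701 genes down, 5 of them in the related lists. A dispersion estimated inside the fit, an alternative chosen after seeing the data, gave 1281 up and 1418 down, and 10 and 4 chaperone genes. The chaperone genes with under 10% shared words gave 2 up and 1 down. The median of all genes was 0.072 with total counts only, 0.37 without the filter, 0.17 with limma-voom and 0.11 to 0.18 with 1 NOD library left out. The median of the chaperone genes was 0.085 with DESeq2's size factors or test, -0.063 with total counts only, 0.15 without the filter, -0.036 under 10% shared words and 0.043 to 0.069 with 1 NOD library left out. With total counts only, Hspd1 (-0.050), Trap1 (-0.063) and Pfdn1 (-0.025) changed direction. The causes were not tested. No paired analysis was possible because there is 1 B6 library, so that the groups share fewer than 2 replicate numbers. With 1 B6 library, biological spread in B6 is unknown.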
